A study of Arabidopsis thaliana with 18 samples.

Results

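The mitotic cyclin, kinase and cytokinesis genes are 33 Arabidopsis thaliana loci chosen by name from the 34212 loci of the deposited tables, with earlier results of these data known. They hold 5 A-type cyclins, 9 B-type cyclins, 4 B-type cyclin-dependent kinases, 3 cytokinesis genes, 3 chromosome genes, 4 spindle genes, 2 MYB3R transcription factors and 3 genes of mitotic exit and its checkpoint. The rule itself has no threshold on a measured value, but counts over these genes are not those of a blind choice. All 33 loci were in both tables and passed the low count filter in every fit. The leaves came from 3-week-old Col-0 plants of 2 genotypes, upf1-3 pad4-1 and the control pad4-1. UPF1 encodes a helicase on which nonsense-mediated decay of mRNA depends, and PAD4 is a regulator of salicylic acid dependent immunity whose pad4-1 allele both genotypes carry, so no plant here had a wild-type PAD4. Each genotype gave RNA of 3 kinds, namely total RNA, RNA from monosomes (mRNA with a lone ribosome) and RNA from polysomes (mRNA with several ribosomes). With 3 biological replicates per kind and genotype this made 18 strand-specific libraries in 6 groups. The labels do not say which leaves of the rosette were taken, whether plants were pooled, or where the upf1-3 lesion lies.

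In plants, entry into mitosis depends on cyclin-dependent kinases bound to A-type and B-type cyclins, and the B-type kinases are a plant-specific class that accumulates around the transition from G2 to M phase. Many of the genes needed from late G2 to cytokinesis are known to be switched on together by MYB3R transcription factors, which bind the M-phase-specific activator (MSA) element in their promoters. Division then ends with a phragmoplast, a plant array of microtubules and vesicles that builds the new cell wall. In a leaf, cells divide while the organ is young and, later, mainly in the stomatal lineage, so dividing cells are a minority in a grown leaf.

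Depth ran between 16325537 and 81528839 estimated counts per library, of which 20.7 to 74.1% fell on chloroplast genes. Levels are given as CPM, estimated counts relative to the scaled library size, and each adjusted p is from edgeR's quasi-likelihood test with Benjamini-Hochberg adjustment over all genes tested. UPF1 had 39.3, 24.8 and 35.97 CPM in total RNA of upf1-3 pad4-1 leaves, against 61.7, 76.1 and 69.9 CPM in pad4-1 leaves, and its log2 fold change was -1.05 (adjusted p = 0.0159). In monosomal RNA UPF1 had 37.5, 43.3 and 39.3 CPM in upf1-3 pad4-1, against 48.1, 46.6 and 42.8 CPM in pad4-1, and in polysomal RNA 26.4, 32.7 and 65.6 CPM in upf1-3 pad4-1, against 49.7, 49.6 and 46.4 CPM in pad4-1. The library labelled upf1-3 pad4-1 polysome replicate 3 thus had more UPF1 than each pad4-1 polysomal library, so polysomal counts are also given without it. PAD4 had 3.57, 40.5 and 4.42 CPM in total RNA of upf1-3 pad4-1, against 1.78, 1.33 and 1.31 CPM in pad4-1. Total replicate 2 of upf1-3 pad4-1 thus stood far above the others of its label for PAD4, and counts without it are given below. PAD4 also had 5.03, 6.76 and 4.03 CPM in polysomal RNA of upf1-3 pad4-1 and 0.948, 0.0718 and 1.23 CPM in pad4-1. By that gene polysome replicate 3 of upf1-3 pad4-1 sat with the others of its label.

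In total RNA the mitotic genes were lower in upf1-3 pad4-1 leaves almost as a block. Of the 33 genes 25 fell and none rose at an adjusted p under 0.05, where 12.5% of all 20302 genes tested fell and 15.3% rose. Their median log2 fold change was -1.71, beside 0.03 over all genes tested, and the steepest falls were those of the cytokinesis kinesin HIK (-2.79), the syntaxin SYP111 (-2.78) and the chromosome protein 3xHMG-box2 (-2.74). For 26 of the 33 genes each upf1-3 pad4-1 library lay below each pad4-1 library, which was so for 23.8% of all genes. Only CYCA2;2 had a log2 fold change above 0 (0.40), and it was not called. From bulk leaves, fewer dividing cells and less of these RNAs per dividing cell cannot be told apart.

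**Figure D1:**
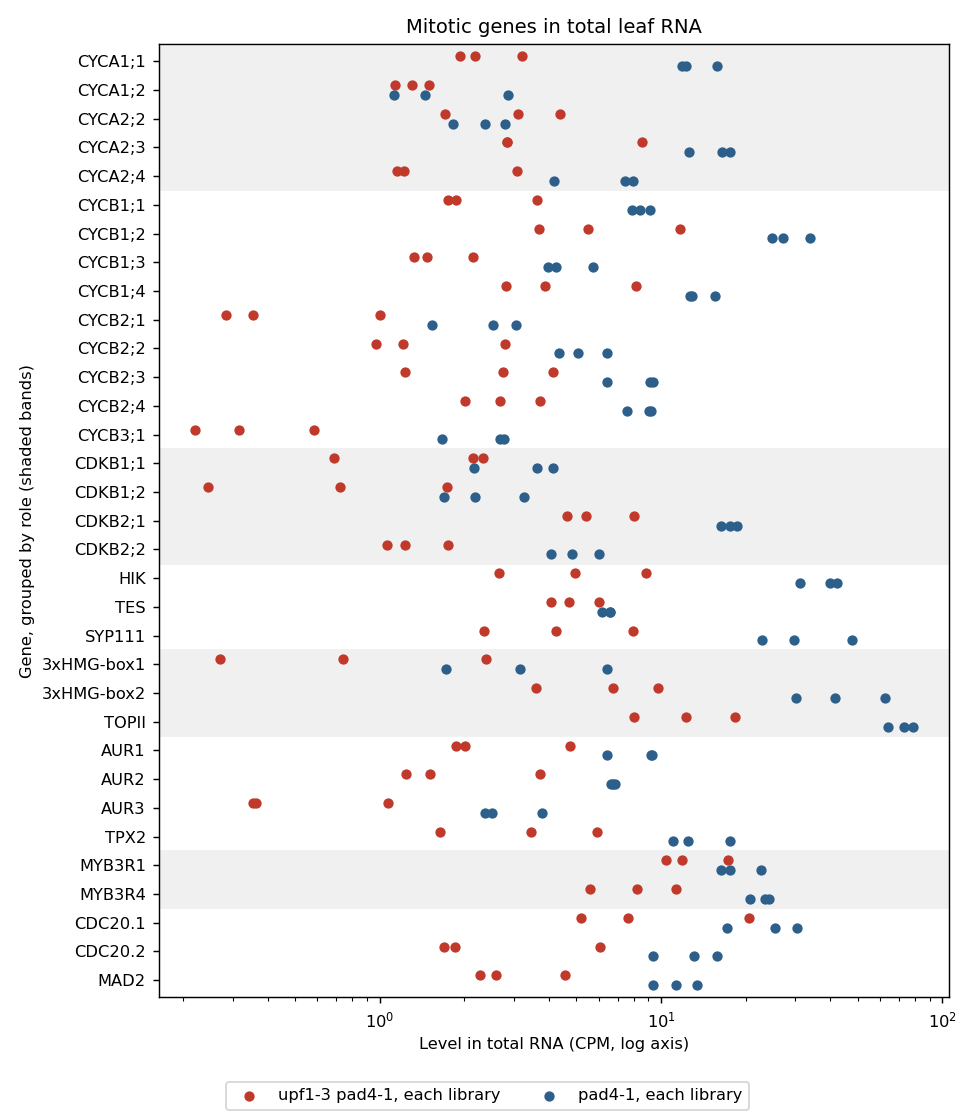
Level of each of the 33 mitotic genes in total leaf RNA, with CPM on a log axis, 1 row per gene and shaded bands separating the roles. Each point is a library, 3 of upf1-3 pad4-1 (red, upper) and 3 of pad4-1 (blue, lower) per gene. The red points lie left of all blue points for 26 genes, and overlap them for CYCA1;2, CYCA2;2, CDKB1;1, CDKB1;2, 3xHMG-box1, MYB3R1 and CDC20.1.

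The same direction was found on ribosomes. In monosomal RNA 14 of the 33 genes fell and none rose (4.6% of all 20895 genes tested fell and 8.07% rose), with a median log2 fold change of -1.72 beside 0.02 over all genes. In polysomal RNA 13 fell and none rose (5.04% of all genes fell and 8.34% rose), with a median of -1.78 beside 0.03. Each upf1-3 pad4-1 library lay below each pad4-1 library for 25 genes in monosomal RNA, where 14.6% of all genes did so, and for 30 genes in polysomal RNA, where 16.6% did so. Without the library labelled upf1-3 pad4-1 polysome replicate 3, 13 genes fell in polysomal RNA and the median was -1.38. Of those 13, 8 are shared, and CYCA1;1, CYCA2;3, CYCA2;4, CYCB2;2 and MYB3R4 were no longer called.

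The list of genes called in all 3 kinds of RNA has 9 names. CYCB1;2, CYCB2;2, CYCB2;4, CDKB2;1, HIK, 3xHMG-box2, TOPII, TPX2 and MYB3R4 were each called lower in total, monosomal and polysomal RNA, beside 325 of 19930 genes tested in all (1.63%). A further 8 genes were called in 2 kinds, 9 in 1 kind and 7 in none. The 7 never called were CYCA1;2, CYCA2;2, CDKB1;1, CDKB1;2, TES, 3xHMG-box1 and MYB3R1. The fractions share a fit and the kinds of RNA may share plants, so these counts are not taken as independent of each other.

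**Figure D2:**
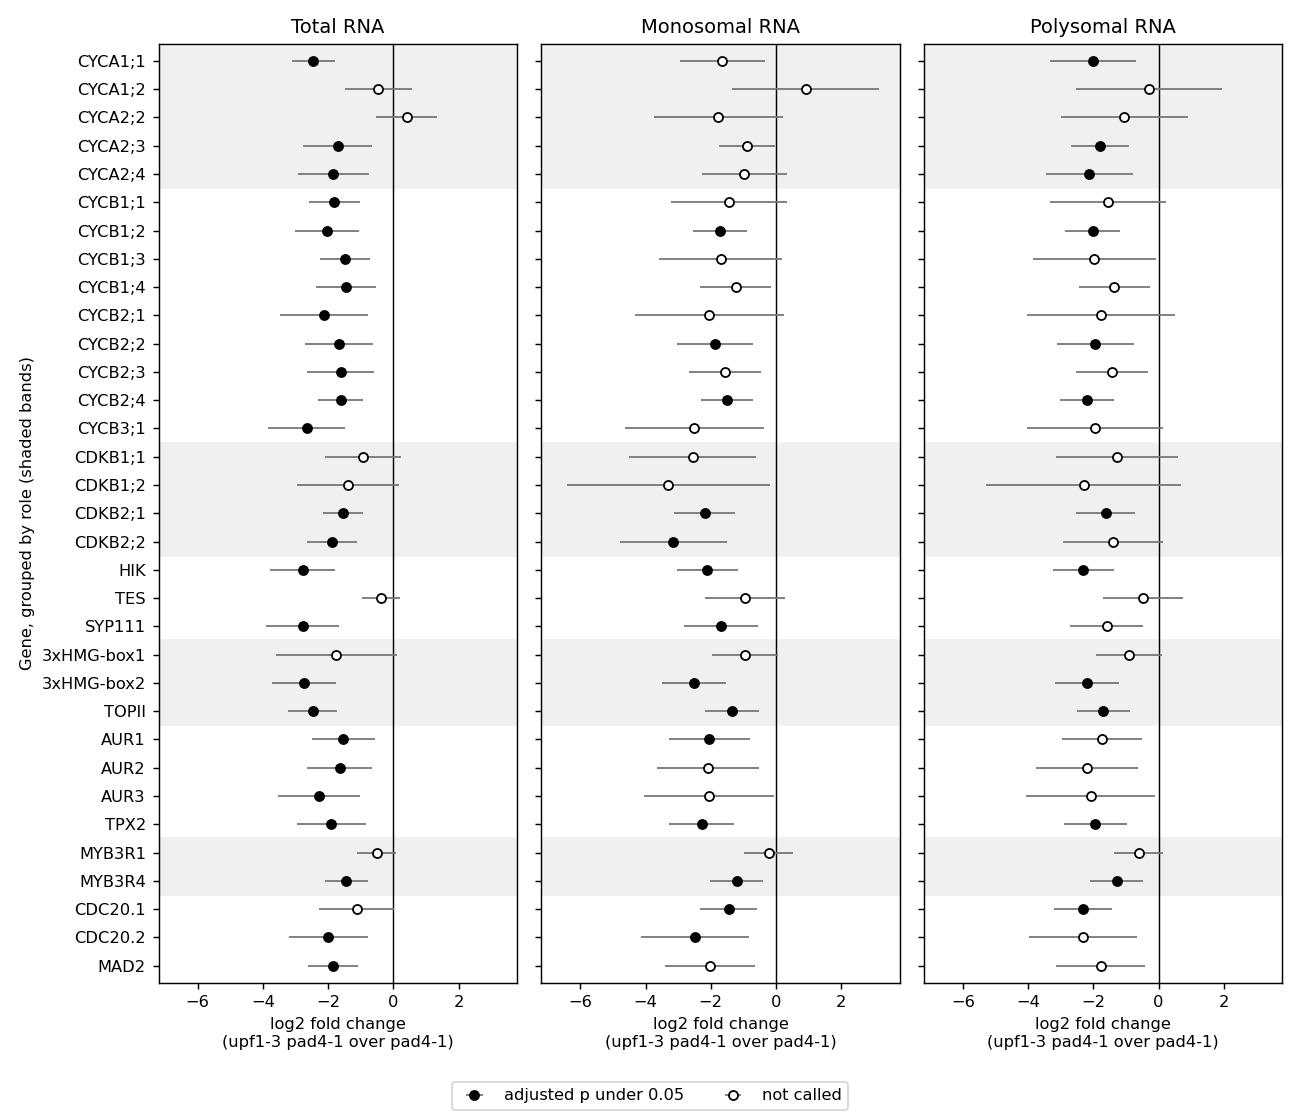
Log2 fold change of upf1-3 pad4-1 over pad4-1 for the 33 mitotic genes in total, monosomal and polysomal RNA, with 95% intervals. Filled points passed an adjusted p of 0.05 (25, 14 and 13 genes, all below 0) and open points did not, and intervals are widest for genes with few counts, such as CDKB1;2 in the fractions.

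The promoters of these genes are shown because many of these genes fell in the same samples and because the MSA element is the known shared feature of M phase promoters. In windows of 250 bases before to 50 after each gene's start, read from the RefSeq TAIR10.1 genome, the MSA core AACGG stood on either strand in 23 of the 33 members (69.7%), beside 24.7% of 27443 nuclear protein-coding genes. At least 2 core sites stood in 15 members (45.5%), beside 4.89% of all genes, and the longer MSA consensus stood in 8 members (24.2%), beside 0.474%. The consensus sites of those 8 are given with 10 bases on each side of the core, 5′ to 3′ on the strand of the site, with the core in capitals.
CYCB1;2 at chr5:1861700-1861724, plus strand: gttcaattccAACGGtcatattttt
CYCB1;3 at chr3:3627298-3627322, minus strand: ttcatcatccAACGGctagaagtct
CYCB1;4 at chr2:11401135-11401159, plus strand: cttcgtccccAACGGctagtaataa
CYCB2;1 at chr2:7663960-7663984, plus strand: ctcatgatccAACGGttatattcta
CYCB2;2 at chr4:16901462-16901486, plus strand: ttcatgatccAACGGtcatcttaat
HIK at chr1:6324375-6324399, plus strand: acgaacctctAACGGctagttcttt
SYP111 at chr1:2710974-2710998, plus strand: tcttcgccccAACGGctatattttg
TPX2 at chr1:951921-951945, plus strand: tcttgtctctAACGGctatattttc
No core letters stood in the windows of CYCA2;2, CYCA2;3, CYCA2;4, CYCB2;4, CDKB1;1, CDKB1;2, CDKB2;1, AUR3, MYB3R1 and CDC20.1. In total RNA 20 of the 23 members with a core and 5 of the 10 without fell, and all 8 with the consensus did. In monosomal RNA 11 of the 23 with a core, 3 of the 10 without and 5 of the 8 with the consensus fell. In polysomal RNA the split ran the other way, with 8 of the 23 (34.8%) and 5 of the 10 (50%), and 4 of the 8 with the consensus fell. Median log2 fold changes of members with and without a core were -1.855 and -1.47 in total RNA and -1.718 and -1.633 in monosomal RNA. They were -1.76 and -1.941 in polysomal RNA, and the difference between members with and without a core was not tested. Among the other protein-coding genes tested in total RNA, 12.4% of 14258 with no core fell, 16.1% of 1061 with at least 2 cores, and 18 of 102 with the consensus (17.6%). In monosomal RNA 2.97% and in polysomal RNA 7.92% of 101 other genes with the consensus fell, beside 4.78 and 5.28% of all 19680 other genes. A match of letters is a description and does not show that a factor binds there. The members were chosen by name as mitotic genes, for which this element is known. Its excess over all genes thus comes with that choice.

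The A-type cyclins activate cyclin-dependent kinases from S phase into mitosis. Of the 5, CYCA1;1, CYCA2;3 and CYCA2;4 fell in total and in polysomal RNA, and none was called in monosomal RNA. In total RNA CYCA1;1 had 2.18, 1.93 and 3.20 CPM in upf1-3 pad4-1, against 15.8, 12.3 and 11.9 CPM in pad4-1. In monosomal RNA it had 4.18, 5.90 and 2.50 CPM in upf1-3 pad4-1, against 9.84, 18.2 and 11.3 CPM in pad4-1. In polysomal RNA it had 4.16, 6.32 and 0.422 CPM in upf1-3 pad4-1, against 13.7, 15.5 and 15.2 CPM in pad4-1. The genotypes did not overlap in any kind of RNA, and the lowest value was that of upf1-3 pad4-1 polysome replicate 3. The log2 fold change of CYCA1;1 (AT1G44110) was -2.45 (SE 0.29, adjusted p = 0.00217) in total RNA, -1.64 (adjusted p = 0.0907) in monosomal RNA and -2.01 (adjusted p = 0.0421) in polysomal RNA. CYCA2;3 (AT1G15570) is known to restrain endoreduplication together with CDKB1;1. Levels of CYCA2;3 in total RNA were 2.83, 2.84 and 8.59 CPM in upf1-3 pad4-1, against 12.5, 17.6 and 16.5 CPM in pad4-1. Monosomes held 5.45, 9.22 and 6.61 CPM of it in upf1-3 pad4-1, against 11.7, 20.16 and 7.498 CPM in pad4-1. Polysomes held 5.68, 7.17 and 3.09 CPM of it in upf1-3 pad4-1, against 22.8, 17.9 and 15.1 CPM in pad4-1. The genotypes were apart in total and polysomal RNA and overlapped in monosomal RNA, with log2 fold changes of -1.71 (SE 0.46, adjusted p = 0.0296), -1.80 (adjusted p = 0.00970) and -0.89 (adjusted p = 0.167) in those 3 kinds. CYCA2;4 (AT1G80370) belongs to the same A2 class. CYCA2;4 stood at 1.15, 1.21 and 3.06 CPM in total RNA of upf1-3 pad4-1, against 4.15, 7.93 and 7.44 CPM in pad4-1. On monosomes it stood at 1.42, 4.08 and 1.73 CPM in upf1-3 pad4-1, against 5.90, 2.31 and 5.95 CPM in pad4-1. On polysomes it stood at 2.33, 1.69 and 0.750 CPM in upf1-3 pad4-1, against 5.94, 6.28 and 8.78 CPM in pad4-1. Its genotypes overlapped on monosomes alone, and it fell by 1.85 on the log2 scale in total RNA (adjusted p = 0.0246) and by 2.12 in polysomal RNA (adjusted p = 0.0356), with -0.97 (adjusted p = 0.326) in monosomal RNA.

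The remaining A-type cyclins were low and not called. CYCA1;2 (AT1G77390), known as TARDY ASYNCHRONOUS MEIOSIS for its part in meiosis, ranged over 1.14 to 1.499 CPM in upf1-3 pad4-1 and 1.12 to 2.85 CPM in pad4-1 in total RNA. CYCA2;2 (AT5G11300) ranged over 1.70 to 4.37 CPM in upf1-3 pad4-1 and 1.82 to 2.78 CPM in pad4-1 in total RNA, with a log2 fold change of 0.40 (95% interval -0.54 to 1.35, adjusted p = 0.488). Both overlapped between genotypes in total and monosomal RNA, and in polysomal RNA CYCA2;2 ranged over 1.22 to 2.40 CPM in upf1-3 pad4-1 and 3.45 to 4.74 CPM in pad4-1 without overlap. CYCA1;1 kept its call in total RNA whichever library was left out, with an adjusted p of at most 0.0180. Calls of CYCA2;3 and CYCA2;4 in total RNA were lost without pad4-1 replicate 2 or 3 or upf1-3 pad4-1 replicate 1, and that of CYCA2;3 also without pad4-1 replicate 1, with adjusted p-values up to 0.0976 and 0.0952. Without the library labelled upf1-3 pad4-1 polysome replicate 3 none of the 3 was called in polysomal RNA. The call of CYCA1;1 was also lost without any single other polysomal library but upf1-3 pad4-1 replicate 2 or without pad4-1 monosome replicate 2 or 3, and that of CYCA2;4 without any single other polysomal library but upf1-3 pad4-1 replicate 1 (adjusted p up to 0.107, 0.0509 and 0.147 for CYCA1;1, CYCA2;3 and CYCA2;4). With the 6 polysomal libraries alone CYCA1;1 was not called (adjusted p = 0.0655), and with limma-voom CYCA2;4 was not.

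Among the B-type cyclins all 9 fell in total RNA, with log2 fold changes between -2.66 and -1.47, and 3 fell in each fraction. The CYCB1 genes are commonly used as markers of cells in G2 and M phase, and all 4 bear AACGG in the windows described above. CYCB1;1 (AT4G37490) is also known to respond to DNA damage. In total RNA CYCB1;1 had 1.86, 1.74 and 3.63 CPM in upf1-3 pad4-1, against 8.40, 9.11 and 7.87 CPM in pad4-1. In monosomal RNA it had 4.74, 5.62 and 0.351 CPM in upf1-3 pad4-1, against 9.07, 8.05 and 12.2 CPM in pad4-1. In polysomal RNA it had 8.13, 7.81 and 0.328 CPM in upf1-3 pad4-1, against 9.53, 19.0 and 19.7 CPM in pad4-1. On monosomes and polysomes replicate 3 of upf1-3 pad4-1 had less than 0.1 times the level of either other replicate, and the estimates there were uncertain. CYCB1;1 fell in total RNA, at -1.81 (SE 0.34, adjusted p = 0.00894), and had -1.44 (adjusted p = 0.285) in monosomal and -1.55 (adjusted p = 0.257) in polysomal RNA. CYCB1;2 (AT5G06150) was the most abundant B-type cyclin per kilobase in pad4-1 total RNA. Levels of CYCB1;2 in total RNA were 5.49, 3.70 and 11.7 CPM in upf1-3 pad4-1, against 24.8, 33.8 and 27.0 CPM in pad4-1. Monosomes held 5.96, 5.26 and 9.44 CPM of it in upf1-3 pad4-1, against 16.5, 23.2 and 28.3 CPM in pad4-1. Polysomes held 12.2, 9.11 and 3.52 CPM of it in upf1-3 pad4-1, against 33.9, 33.3 and 33.9 CPM in pad4-1. No upf1-3 pad4-1 value reached a pad4-1 value in any kind of RNA, and the gene fell by 2.04, 1.72 and 2.02 on the log2 scale in total, monosomal and polysomal RNA (adjusted p = 0.0118, 0.0103 and 0.00326).

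CYCB1;3 (AT3G11520) and CYCB1;4 (AT2G26760) were called in total RNA alone. CYCB1;3 stood at 1.47, 1.32 and 2.15 CPM in total RNA of upf1-3 pad4-1, against 4.22, 5.72 and 3.96 CPM in pad4-1. On monosomes it stood at 1.67, 1.23 and 0.0751 CPM in upf1-3 pad4-1, against 3.44, 4.18 and 2.07 CPM in pad4-1. On polysomes it stood at 3.11, 2.25 and 0.375 CPM in upf1-3 pad4-1, against 3.34, 7.90 and 11.4 CPM in pad4-1. Replicate 1 of the genotypes nearly met on polysomes, and the log2 fold change of CYCB1;3 was -1.49 (SE 0.33, adjusted p = 0.0155) in total RNA, with -1.70 (adjusted p = 0.230) in monosomal and -1.97 (adjusted p = 0.167) in polysomal RNA. In total RNA CYCB1;4 had 3.87, 2.82 and 8.17 CPM in upf1-3 pad4-1, against 12.6, 12.8 and 15.5 CPM in pad4-1. In monosomal RNA it had 4.46, 4.59 and 3.105 CPM in upf1-3 pad4-1, against 10.4, 10.4 and 7.82 CPM in pad4-1. In polysomal RNA it had 9.04, 8.59 and 1.31 CPM in upf1-3 pad4-1, against 15.6, 13.7 and 19.4 CPM in pad4-1. The genotypes did not overlap, and the log2 fold change of CYCB1;4 was -1.47 (SE 0.40, adjusted p = 0.0301) in total RNA, with adjusted p-values of 0.126 and 0.0933 in monosomal and polysomal RNA.

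CYCB2;2 (AT4G35620) and CYCB2;4 (AT1G76310) were called in all 3 kinds of RNA. Levels of CYCB2;2 in total RNA were 1.21, 0.969 and 2.79 CPM in upf1-3 pad4-1, against 5.07, 6.44 and 4.34 CPM in pad4-1. Monosomes held 3.87, 5.16 and 1.25 CPM of it in upf1-3 pad4-1, against 11.3, 11.9 and 14.3 CPM in pad4-1. Polysomes held 4.74, 5.07 and 0.984 CPM of it in upf1-3 pad4-1, against 11.6, 13.8 and 16.3 CPM in pad4-1. Its log2 fold changes were -1.67 (SE 0.45, adjusted p = 0.0289) in total RNA, -1.86 (adjusted p = 0.0373) in monosomal RNA and -1.94 (adjusted p = 0.0298) in polysomal RNA, with the genotypes apart in each. CYCB2;4 stood at 2.01, 2.68 and 3.72 CPM in total RNA of upf1-3 pad4-1, against 9.24, 9.06 and 7.55 CPM in pad4-1. On monosomes it stood at 3.85, 4.33 and 5.73 CPM in upf1-3 pad4-1, against 16.9, 12.02 and 10.3 CPM in pad4-1. On polysomes it stood at 4.98, 4.06 and 2.06 CPM in upf1-3 pad4-1, against 19.1, 17.6 and 14.4 CPM in pad4-1. The polysomal change of CYCB2;4, -2.19 (SE 0.39, adjusted p = 0.00150), had the smallest adjusted p of the mitotic genes in that fraction, beside -1.62 (adjusted p = 0.00801) in total and -1.50 (adjusted p = 0.0171) in monosomal RNA. CYCB2;3 (AT1G20610) was called in total RNA alone. In total RNA CYCB2;3 had 4.13, 1.23 and 2.75 CPM in upf1-3 pad4-1, against 9.16, 9.33 and 6.41 CPM in pad4-1. In monosomal RNA it had 5.63, 10.0 and 1.90 CPM in upf1-3 pad4-1, against 16.6, 22.5 and 12.6 CPM in pad4-1. In polysomal RNA it had 7.64, 9.33 and 2.67 CPM in upf1-3 pad4-1, against 15.2, 19.2 and 18.9 CPM in pad4-1. Its genotypes did not overlap, and it stood at -1.62 (SE 0.44, adjusted p = 0.0297) in total RNA, with adjusted p-values of 0.0597 and 0.0796 in monosomal and polysomal RNA.

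At the low end of the B-type cyclins, CYCB2;1 (AT2G17620) ranged over 0.284 to 0.998 CPM in upf1-3 pad4-1 and 1.54 to 3.04 CPM in pad4-1 in total RNA, with a log2 fold change of -2.12 (SE 0.59, adjusted p = 0.0317). CYCB3;1 (AT1G16330), the single B3-type cyclin, ranged over 0.220 to 0.585 CPM in upf1-3 pad4-1 and 1.66 to 2.77 CPM in pad4-1 in total RNA, with -2.66 (SE 0.51, adjusted p = 0.00910). Neither was called in a fraction, where CYCB2;1 ranged over 0.0501 to 1.71 CPM in upf1-3 pad4-1 and 2.12 to 7.48 CPM in pad4-1 in monosomal RNA and CYCB3;1 over 0.0501 to 0.916 CPM in upf1-3 pad4-1 and 1.75 to 3.20 CPM in pad4-1. Of the 9 calls in total RNA, those of CYCB1;1 and CYCB2;4 held whichever library was left out. Without pad4-1 replicate 2 CYCB1;2 lost its call (adjusted p = 0.0529), and so did CYCB3;1, which came to the threshold itself (adjusted p = 0.05). CYCB1;3 lost its call without pad4-1 replicate 1 or 2 (up to 0.0846). The calls of CYCB1;4, CYCB2;1 and CYCB2;2 went without any single pad4-1 replicate or upf1-3 pad4-1 replicate 1 (up to 0.0942, 0.115 and 0.111), and that of CYCB2;3 without any single pad4-1 replicate or upf1-3 pad4-1 replicate 3 (up to 0.107). In the fractions CYCB1;2 kept its calls and CYCB2;4 its polysomal call. CYCB2;4 lost its monosomal call without pad4-1 monosome replicate 1 or upf1-3 pad4-1 monosome replicate 1 or 2 (up to 0.0632). CYCB2;2 lost its monosomal call without any single pad4-1 monosome replicate, pad4-1 polysome replicate 2 or 3 or upf1-3 pad4-1 monosome replicate 1 or 3 (up to 0.101), and its polysomal call without pad4-1 polysome replicate 2 or 3 or upf1-3 pad4-1 polysome replicate 3 (up to 0.106).

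Among the B-type kinases both CDKB2 genes, which are known to be needed for the division cycle and for an ordered shoot meristem, fell in total and monosomal RNA, and CDKB2;1 also in polysomal RNA. Levels of CDKB2;1 in total RNA were 5.39, 4.61 and 8.02 CPM in upf1-3 pad4-1, against 17.6, 16.4 and 18.6 CPM in pad4-1. Monosomes held 6.41, 8.63 and 6.23 CPM of it in upf1-3 pad4-1, against 29.9, 38.0 and 29.2 CPM in pad4-1. Polysomes held 13.1, 11.0 and 2.53 CPM of it in upf1-3 pad4-1, against 23.8, 28.2 and 29.9 CPM in pad4-1. Each kind of RNA separated the genotypes, and the log2 fold changes of CDKB2;1 (AT1G76540) were -1.55 (SE 0.26, adjusted p = 0.00598), -2.19 (adjusted p = 0.00408) and -1.61 (adjusted p = 0.0200) in total, monosomal and polysomal RNA. CDKB2;2 (AT1G20930) is the other gene of the pair. CDKB2;2 stood at 1.23, 1.06 and 1.76 CPM in total RNA of upf1-3 pad4-1, against 4.82, 6.04 and 4.07 CPM in pad4-1. On monosomes it stood at 1.54, 1.54 and 0.2003 CPM in upf1-3 pad4-1, against 7.44, 10.4 and 11.7 CPM in pad4-1. On polysomes it stood at 3.46, 2.77 and 0.375 CPM in upf1-3 pad4-1, against 4.89, 5.56 and 7.10 CPM in pad4-1. Its monosomal change, -3.15 (SE 0.77, adjusted p = 0.0146), was the largest fall called among the mitotic genes in any kind of RNA, beside -1.88 (adjusted p = 0.00726) in total and -1.39 (adjusted p = 0.236) in polysomal RNA. Both CDKB2 calls in total and monosomal RNA held with each library left out in turn, and that of CDKB2;1 in polysomal RNA was lost without pad4-1 polysome replicate 2 or 3 (adjusted p up to 0.0682) and with the 6 polysomal libraries alone (0.0519).

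The CDKB1 kinases, partners of A2-type cyclins, were not called in any kind of RNA. CDKB1;1 (AT3G54180) ranged over 0.688 to 2.32 CPM in upf1-3 pad4-1 and 2.17 to 4.13 CPM in pad4-1 in total RNA, with a log2 fold change of -0.94 (adjusted p = 0.195). In polysomal RNA CDKB1;1 ranged over 0.656 to 3.65 CPM in upf1-3 pad4-1 and 4.24 to 6.43 CPM in pad4-1, with -1.28 (adjusted p = 0.395). CDKB1;2 (AT2G38620) ranged over 0.246 to 1.74 CPM in upf1-3 pad4-1 and 1.69 to 3.24 CPM in pad4-1 in total RNA, with -1.39 (adjusted p = 0.154). It had no count in upf1-3 pad4-1 monosome replicate 2, which allows a level of up to 0.0634 CPM at 3 counts, nor in upf1-3 pad4-1 polysome replicate 3, which allows up to 0.141 CPM. Such limits cover counting error only. The estimates for CDKB1;2 in monosomal and polysomal RNA, -3.30 and -2.29, rest partly on those zeros and have standard errors of 1.47 and 1.41.

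Of the cytokinesis genes HIK fell in all 3 kinds of RNA, SYP111 in total and monosomal RNA, and TES was not called. HIK (HINKEL, AT1G18370) is a kinesin that activates the mitogen-activated protein kinase cascade driving phragmoplast expansion. In total RNA HIK had 4.95, 2.65 and 8.83 CPM in upf1-3 pad4-1, against 39.8, 42.2 and 31.3 CPM in pad4-1. In monosomal RNA HIK had 10.8, 10.7 and 4.38 CPM in upf1-3 pad4-1, against 33.97, 40.7 and 36.9 CPM in pad4-1. In polysomal RNA HIK had 22.5, 18.8 and 5.95 CPM in upf1-3 pad4-1, against 53.1, 94.99 and 86.5 CPM in pad4-1. In each kind of RNA the highest upf1-3 pad4-1 value was below 0.5 times the lowest pad4-1 value, and the log2 fold changes were -2.79 (SE 0.43, adjusted p = 0.00427), -2.10 (adjusted p = 0.00580) and -2.30 (adjusted p = 0.00280) in total, monosomal and polysomal RNA. SYP111 (KNOLLE, AT1G08560) is the syntaxin that fuses vesicles at the cell plate. Levels of SYP111 in total RNA were 4.24, 2.35 and 7.97 CPM in upf1-3 pad4-1, against 47.5, 29.7 and 22.8 CPM in pad4-1. Monosomes held 10.7, 8.01 and 6.61 CPM of SYP111 in upf1-3 pad4-1, against 21.7, 26.0 and 33.8 CPM in pad4-1. Polysomes held 17.96, 24.7 and 2.77 CPM of it in upf1-3 pad4-1, against 28.3, 48.5 and 60.5 CPM in pad4-1. The genotypes were apart in each kind of RNA, by the least on polysomes. SYP111 fell by 2.78 and 1.68 on the log2 scale in total and monosomal RNA (adjusted p = 0.00661 and 0.0487), and its polysomal change was -1.59 (adjusted p = 0.0583).

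TES (TETRASPORE, AT3G43210), a close relative of HIK known for cytokinesis after male meiosis, ranged over 4.07 to 6.02 CPM in upf1-3 pad4-1 and 6.19 to 6.58 CPM in pad4-1 in total RNA and over 4.78 to 7.30 CPM in upf1-3 pad4-1 and 7.67 to 9.15 CPM in pad4-1 in polysomal RNA. The genotypes did not overlap in any kind of RNA, yet the log2 fold change in total RNA was -0.39 (95% interval -0.96 to 0.19, adjusted p = 0.273). All calls of HIK held with each library left out in turn, as did that of SYP111 in total RNA. The monosomal call of SYP111 was lost without any single monosomal library, pad4-1 polysome replicate 2 or 3, or upf1-3 pad4-1 polysome replicate 1 (adjusted p up to 0.140).

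The chromosome genes include the most abundant of the set per kilobase in pad4-1 total RNA. 3xHMG-box2 (AT4G23800) carries HMG-box domains and binds condensed mitotic and meiotic chromosomes. 3xHMG-box2 stood at 6.75, 3.59 and 9.72 CPM in total RNA of upf1-3 pad4-1, against 62.3, 41.7 and 30.1 CPM in pad4-1. On monosomes 3xHMG-box2 stood at 20.16, 24.0 and 7.91 CPM in upf1-3 pad4-1, against 86.5, 115 and 96.2 CPM in pad4-1. On polysomes 3xHMG-box2 stood at 32.8, 51.2 and 12.5 CPM in upf1-3 pad4-1, against 108, 167 and 169.7 CPM in pad4-1. The genotypes were far apart in each kind of RNA, with log2 fold changes of -2.74 (SE 0.43, adjusted p = 0.00449), -2.51 (adjusted p = 0.00264) and -2.20 (adjusted p = 0.00496) in total, monosomal and polysomal RNA. TOPII (AT3G23890) is the DNA topoisomerase II that untangles replicated chromosomes. In total RNA TOPII had 12.3, 7.99 and 18.4 CPM in upf1-3 pad4-1, against 78.8, 72.8 and 63.8 CPM in pad4-1. In monosomal RNA TOPII had 16.0, 19.3 and 15.5 CPM in upf1-3 pad4-1, against 42.2, 40.8 and 46.6 CPM in pad4-1. In polysomal RNA TOPII had 26.3, 38.5 and 8.44 CPM in upf1-3 pad4-1, against 73.9, 84.9 and 78.1 CPM in pad4-1. It fell by 2.48, 1.35 and 1.69 on the log2 scale in total, monosomal and polysomal RNA (adjusted p = 0.00272, 0.0308 and 0.00868), without overlap of genotypes. 3xHMG-box1 (AT4G11080), the paralog of 3xHMG-box2, ranged over 0.271 to 2.38 CPM in upf1-3 pad4-1 and 1.73 to 6.45 CPM in pad4-1 in total RNA. It ranged over 6.15 to 10.6 CPM in upf1-3 pad4-1 and 8.18 to 18.7 CPM in pad4-1 in monosomal RNA, and over 3.70 to 17.3 CPM in upf1-3 pad4-1 and 16.6 to 27.0 CPM in pad4-1 in polysomal RNA. Its genotypes overlapped in all 3, and its log2 fold change in total RNA was -1.75 (adjusted p = 0.136). Calls of 3xHMG-box2 in every kind of RNA and of TOPII in total and polysomal RNA held whichever library was left out, while the monosomal call of TOPII was lost without any single monosomal library (adjusted p up to 0.0858).

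All 4 spindle genes fell in total RNA. AUR1 (AT4G32830) and AUR2 (AT2G25880) are alpha-type Aurora kinases, which act at spindle microtubules and on the orientation of division. Levels of AUR1 in total RNA were 2.01, 1.86 and 4.75 CPM in upf1-3 pad4-1, against 6.40, 9.31 and 9.21 CPM in pad4-1. Monosomes held 3.02, 3.97 and 1.00 CPM of AUR1 in upf1-3 pad4-1, against 13.7, 11.4 and 7.82 CPM in pad4-1. Polysomes held 3.42, 2.52 and 0.984 CPM of it in upf1-3 pad4-1, against 8.28, 4.45 and 10.5 CPM in pad4-1. It was called in total RNA, at -1.53 (SE 0.41, adjusted p = 0.0295), and in monosomal RNA, at -2.04 (adjusted p = 0.0309), with -1.73 (adjusted p = 0.0589) in polysomal RNA. AUR2 stood at 1.51, 1.24 and 3.72 CPM in total RNA of upf1-3 pad4-1, against 6.77, 6.85 and 6.66 CPM in pad4-1. On monosomes AUR2 stood at 3.20, 3.36 and 3.105 CPM in upf1-3 pad4-1, against 13.4, 16.5 and 10.7 CPM in pad4-1. On polysomes AUR2 stood at 5.99, 4.46 and 0.0469 CPM in upf1-3 pad4-1, against 17.7, 14.6 and 16.8 CPM in pad4-1. It was called in total RNA alone, at -1.65 (SE 0.43, adjusted p = 0.0272), with -2.07 (adjusted p = 0.0772) in monosomal and -2.20 (adjusted p = 0.0610) in polysomal RNA, where upf1-3 pad4-1 replicate 3 was nearly empty for this gene. AUR3 (AT2G45490), the Aurora kinase known to phosphorylate histone H3 at centromeres, ranged over 0.353 to 1.07 CPM in upf1-3 pad4-1 and 2.37 to 3.77 CPM in pad4-1 in total RNA, with -2.28 (SE 0.54, adjusted p = 0.0191). In polysomal RNA AUR3 ranged over 0 to 2.30 CPM in upf1-3 pad4-1 and 4.92 to 8.19 CPM in pad4-1, the 0 being upf1-3 pad4-1 replicate 3, which allows up to 0.141 CPM.

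TPX2 (AT1G03780) is a spindle assembly factor that activates Aurora kinases. In total RNA TPX2 had 3.44, 1.64 and 5.92 CPM in upf1-3 pad4-1, against 11.0, 17.5 and 12.5 CPM in pad4-1. In monosomal RNA TPX2 had 7.23, 9.22 and 2.90 CPM in upf1-3 pad4-1, against 31.5, 27.6 and 35.0 CPM in pad4-1. In polysomal RNA TPX2 had 12.8, 15.5 and 4.08 CPM in upf1-3 pad4-1, against 28.6, 49.6 and 46.1 CPM in pad4-1. It fell in all 3 kinds of RNA without overlap, at -1.90 (SE 0.46, adjusted p = 0.0199) in total RNA, -2.28 (adjusted p = 0.00489) in monosomal RNA and -1.94 (adjusted p = 0.0108) in polysomal RNA. TPX2 kept its calls in both fractions with each library left out. In total RNA its call and that of AUR3 were lost without any single pad4-1 replicate (adjusted p up to 0.0801 and 0.0808), and those of AUR1 and AUR2 without any single pad4-1 replicate or upf1-3 pad4-1 replicate 1 (up to 0.104 and 0.0871). The monosomal call of AUR1 went without pad4-1 monosome replicate 1 or 2 or upf1-3 pad4-1 monosome replicate 1 or 3 (up to 0.0826).

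Of the MYB3R factors that activate M phase promoters MYB3R4 was called in all 3 kinds of RNA and MYB3R1 in none, and the difference between them was not tested. Levels of MYB3R4 in total RNA were 8.22, 5.60 and 11.3 CPM in upf1-3 pad4-1, against 20.7, 24.3 and 23.5 CPM in pad4-1. Monosomes held 8.86, 8.12 and 8.36 CPM of MYB3R4 in upf1-3 pad4-1, against 26.6, 10.5 and 21.6 CPM in pad4-1. Polysomes held 12.6, 17.1 and 5.81 CPM of it in upf1-3 pad4-1, against 28.3, 28.7 and 29.8 CPM in pad4-1. MYB3R4 (AT5G11510) fell by 1.45, 1.21 and 1.29 on the log2 scale in total, monosomal and polysomal RNA (adjusted p = 0.00996, 0.0487 and 0.0357), without overlap of genotypes. MYB3R1 (AT4G32730) ranged over 10.4 to 17.3 CPM in upf1-3 pad4-1 and 16.3 to 22.6 CPM in pad4-1 in total RNA. It ranged over 11.2 to 18.6 CPM in upf1-3 pad4-1 and 9.92 to 24.1 CPM in pad4-1 in monosomal RNA, and over 15.4 to 16.4 CPM in upf1-3 pad4-1 and 15.7 to 30.4 CPM in pad4-1 in polysomal RNA. The genotypes overlapped in each, and the log2 fold change of MYB3R1 in total RNA was -0.52 (95% interval -1.12 to 0.09, adjusted p = 0.171). MYB3R4 lost its call in total RNA without pad4-1 replicate 2 (adjusted p = 0.0514), and its polysomal call without any single polysomal library but upf1-3 pad4-1 replicate 2 (up to 0.142). Its monosomal call held only without pad4-1 monosome replicate 2 or upf1-3 pad4-1 polysome replicate 2 or 3 (up to 0.161 otherwise), and was lost with limma-voom, with the replicate block and with the 6 monosomal libraries alone (0.0634).

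Among the genes of exit and checkpoint, CDC20.1 (AT4G33270) and CDC20.2 (AT4G33260) encode activators of the anaphase-promoting complex, the ubiquitin ligase that marks mitotic cyclins for degradation. CDC20.1 stood at 7.61, 5.20 and 20.5 CPM in total RNA of upf1-3 pad4-1, against 17.1, 25.4 and 30.4 CPM in pad4-1. On monosomes CDC20.1 stood at 8.20, 5.14 and 4.38 CPM in upf1-3 pad4-1, against 15.2, 13.9 and 19.5 CPM in pad4-1. On polysomes CDC20.1 stood at 8.88, 6.54 and 2.25 CPM in upf1-3 pad4-1, against 31.8, 28.0 and 28.3 CPM in pad4-1. Replicate 3 of upf1-3 pad4-1 lay inside the pad4-1 range in total RNA, and the genotypes were apart in the fractions. CDC20.1 was called in monosomal RNA, at -1.45 (SE 0.41, adjusted p = 0.0301), and in polysomal RNA, at -2.31 (SE 0.42, adjusted p = 0.00194), and not in total RNA, at -1.13 (adjusted p = 0.125). In total RNA CDC20.2 had 1.69, 1.85 and 6.06 CPM in upf1-3 pad4-1, against 9.38, 13.1 and 15.8 CPM in pad4-1. In monosomal RNA CDC20.2 had 4.17, 1.86 and 0.1002 CPM in upf1-3 pad4-1, against 15.4, 10.2 and 8.79 CPM in pad4-1. In polysomal RNA CDC20.2 had 3.48, 3.21 and 0.891 CPM in upf1-3 pad4-1, against 15.02, 12.5 and 11.0 CPM in pad4-1. It was called in total RNA, at -1.99 (SE 0.52, adjusted p = 0.0267), and in monosomal RNA, at -2.47 (adjusted p = 0.0487), with -2.33 (adjusted p = 0.0599) in polysomal RNA. The CDC20 loci are near copies: of the 31-base words of their transcripts 37.3% in CDC20.1 and 40.2% in CDC20.2 also occur in another gene, so how reads were split between them is uncertain.

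MAD2 (AT3G25980) is a spindle assembly checkpoint protein that holds CDC20 back. Levels of MAD2 in total RNA were 2.27, 2.59 and 4.56 CPM in upf1-3 pad4-1, against 13.4, 11.3 and 9.35 CPM in pad4-1. Monosomes held 4.81, 3.34 and 0.476 CPM of MAD2 in upf1-3 pad4-1, against 8.45, 11.7 and 15.4 CPM in pad4-1. Polysomes held 9.14, 6.27 and 1.55 CPM of it in upf1-3 pad4-1, against 19.7, 17.8 and 21.2 CPM in pad4-1. The genotypes did not overlap, and MAD2 was called in total RNA, at -1.85 (SE 0.33, adjusted p = 0.00741), and missed the threshold in monosomal RNA, at -2.03 (adjusted p = 0.0513), and polysomal RNA, at -1.78 (adjusted p = 0.0807). The call of MAD2 in total RNA and that of CDC20.1 in polysomal RNA held with each library left out. CDC20.1 lost its monosomal call without pad4-1 monosome replicate 2 or 3 or upf1-3 pad4-1 monosome replicate 2 or 3 (adjusted p up to 0.101). CDC20.2 lost its call in total RNA without any single pad4-1 replicate or upf1-3 pad4-1 replicate 1 (up to 0.0862), and its monosomal call held only without upf1-3 pad4-1 monosome replicate 1 or 3 or polysome replicate 3 (up to 0.120 otherwise), and was lost with the 6 monosomal libraries alone (0.102).

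Counts of calls moved more than directions did. In total RNA 14, 10 and 14 genes fell without pad4-1 replicate 1, 2 or 3, and 18, 25 and 26 without upf1-3 pad4-1 replicate 1, 2 or 3, while 31 or 32 of the 33 log2 fold changes stayed below 0. Fitting all 18 libraries at once left 16, with CYCB1;1, CYCB1;3, CYCB1;4, CYCB2;1, CDKB2;2, the 3 Aurora kinases and CDC20.2 no longer called. In monosomal RNA 7, 8 and 8 fell without pad4-1 monosome replicate 1, 2 or 3, 9 and 8 without upf1-3 pad4-1 monosome replicate 2 or 3, and 6 without both fraction libraries of pad4-1 replicate 1. In polysomal RNA 8 and 8 fell without pad4-1 polysome replicate 2 or 3. Without scaling beyond the library total 1 and 2 genes were called in monosomal and polysomal RNA, the median of all genes stood at 0.62 and 0.47, and that of the mitotic genes at -1.11 and -1.21.

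Libraries of upf1-3 pad4-1 differed among themselves in the same direction across most of the 33 genes. Summed over the 33 genes, the level was 118, 87.1 and 189 CPM in total RNA of upf1-3 pad4-1 replicates 1, 2 and 3, against 489, 490.3 and 430 CPM in pad4-1. It was 185, 192 and 118 CPM in monosomal RNA of upf1-3 pad4-1, against 520.2, 565 and 547 CPM in pad4-1. In polysomal RNA it was 282, 318 and 90.8 CPM in upf1-3 pad4-1, against 673, 839 and 846 CPM in pad4-1. The genotypes did not overlap in any kind of RNA, and the pad4-1 replicates were close to each other in total and monosomal RNA. The library labelled upf1-3 pad4-1 polysome replicate 3 was the lowest of its group for 32 of the 33 genes, and monosome replicate 3 for 23. In total RNA the order was another, and replicate 2 was lowest for 23 genes and replicate 3 highest for 28. Relative to the pad4-1 mean the median gene stood at -2.08, -2.39 and -1.12 on the log2 scale in the total RNA replicates 1, 2 and 3 of upf1-3 pad4-1, and at -1.28, -1.30 and -3.54 in the polysomal ones.

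**Figure D3:**
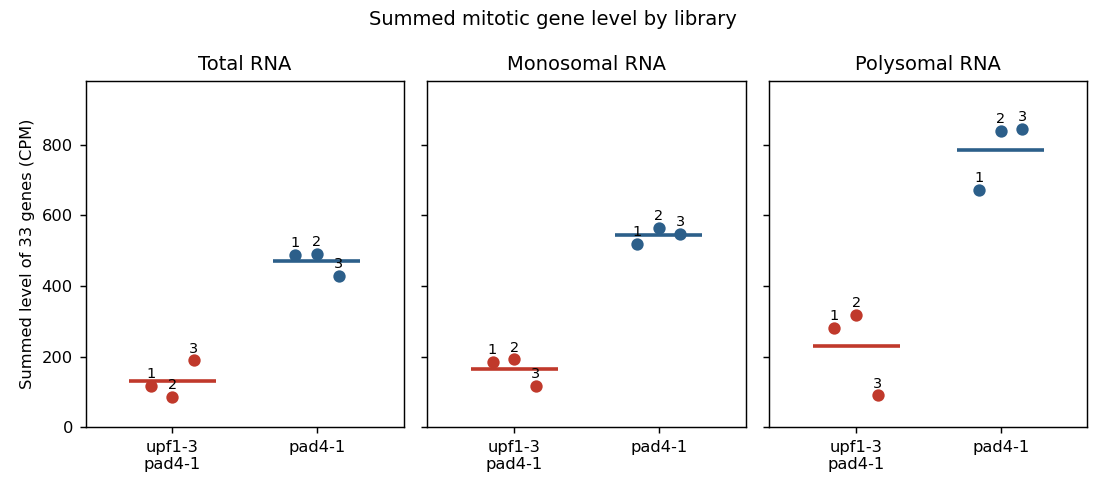
Summed level of the 33 mitotic genes in each library, in CPM, for total, monosomal and polysomal RNA, with upf1-3 pad4-1 (red) left of pad4-1 (blue). Points are libraries with their replicate numbers and lines are group means, and the upf1-3 pad4-1 libraries lie between 87.1 and 318 CPM and the pad4-1 libraries between 430 and 846 CPM.

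Markers of other cells are given beside these falls. Stomatal lineage markers (8 genes) summed to 6.71 to 19.2 CPM in total RNA of upf1-3 pad4-1 and 24.1 to 31.02 CPM in pad4-1. In monosomal RNA they summed to 26.6 to 36.7 CPM in upf1-3 pad4-1 and 52.2 to 76.3 CPM in pad4-1. In polysomal RNA they summed to 23.8 to 27.2 CPM in upf1-3 pad4-1 and 32.2 to 62.6 CPM in pad4-1. Of these markers SPCH, the factor that starts the lineage, fell in all 3 kinds of RNA (-2.29, -1.63 and -1.73 on the log2 scale), TMM fell in monosomal RNA, and no other was called. FAMA had 8.72, 5.13 and 6.56 CPM in total RNA of upf1-3 pad4-1, against 8.67, 8.95 and 6.82 CPM in pad4-1, with overlap. It made up 19.8 of the 23.8 CPM in the library labelled upf1-3 pad4-1 polysome replicate 3, so that sum mostly follows 1 gene. Shoot meristem and boundary markers (9 genes) summed to 25.0 to 69.6 CPM in total RNA of upf1-3 pad4-1 and 64.5 to 84.4 CPM in pad4-1, and none of the 7 tested was called. Their sums were 39.4 to 53.4 CPM in upf1-3 pad4-1 and 35.8 to 57.8 CPM in pad4-1 in monosomal RNA, and 41.0 to 59.8 CPM in upf1-3 pad4-1 and 55.4 to 60.4 CPM in pad4-1 in polysomal RNA. CLV1 alone made up most of the sum in each library, so the sums mostly follow 1 gene. In total RNA CLV1 had 22.7, 25.8 and 49.2 CPM in upf1-3 pad4-1, against 44.7, 49.7 and 66.5 CPM in pad4-1. In the library labelled upf1-3 pad4-1 polysome replicate 3, 7 of the 9 were at 0, STM, KNAT1 and KNAT2 among them, and CLV1 made up 40.6 of the 41.0 CPM. Mesophyll markers (6 genes) summed to 6240 to 14685 CPM in total RNA of upf1-3 pad4-1 and 19341 to 23174 CPM in pad4-1, with RBCS1A called lower (-1.49). They overlapped between the genotypes in both fractions, where LHCB2.1 rose on monosomes (2.28). Floral and anther markers (9 genes) summed to 0.409 to 4.16 CPM in total RNA of upf1-3 pad4-1 and 4.78 to 19.5 CPM in pad4-1, with none called. In monosomal RNA they summed to 1.43 to 5.04 CPM in upf1-3 pad4-1 and to 9.07, 153 and 130 CPM in pad4-1 replicates 1, 2 and 3. In polysomal RNA they summed to 9.55, 9.28 and 0.984 CPM in upf1-3 pad4-1 and 3.49, 34.1 and 50.1 CPM in pad4-1, with overlap. The pad4-1 fraction libraries of replicate 1 thus held far less of these markers than those of replicates 2 and 3. PI, SEP3, LTP12 and ATA27 fell in monosomal RNA, as did LTP12 and ATA27 in polysomal RNA. The part of any of these cells in the fall of the mitotic genes was not tested.

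Levels of the mitotic genes can be ranked against each other only per transcript length. In total RNA of pad4-1 the mean level per kilobase of transcript was 27.5 ± 10.0 CPM for 3xHMG-box2, 24.1 ± 9.20 for SYP111, 16.0 ± 2.64 for CYCB1;2, 14.4 ± 1.51 for TOPII and 12.8 ± 0.835 for CDKB2;1 (SD, n = 3). The leading pair lay within their spread of each other, as did CYCB1;2 and TOPII. At the other end stood CYCB2;1 (1.43), CYCA2;2 (1.21), CYCB3;1 (1.17) and CYCA1;2 (1.05 CPM per kilobase). In upf1-3 pad4-1 the order differed: CDC20.1 led at 5.30 ± 3.93, before CDKB2;1 at 4.40 ± 1.31 and 3xHMG-box2 at 4.11 ± 1.89 CPM per kilobase, each within its SD of the next. The genes least changed between genotypes climbed, so MYB3R1 stood at rank 6 in upf1-3 pad4-1 and 17 in pad4-1, and CYCA2;2 at 14 and 31.

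Ribosome loading was compared within each genotype as the ratio of polysomal to monosomal level, with the libraries unpaired. No mitotic gene was called in upf1-3 pad4-1 (1.11% of all genes were, in either direction) or in pad4-1 (0.33%). Median log2 ratios of the 33 genes were 0.53 in upf1-3 pad4-1 and 0.50 in pad4-1, beside 0.03 and 0.00 over all genes. With same-numbered fraction libraries blocked within genotype, a fit added after seeing the data, the medians were 0.31 in upf1-3 pad4-1 and 0.56 in pad4-1, no mitotic gene was called in upf1-3 pad4-1 (2.99% of all genes were), and HIK alone was called in pad4-1 (1.03, adjusted p = 0.0417, beside 2.3% of all genes). The median in upf1-3 pad4-1 was 0.28, 0.21 and 0.93 without its polysome replicate 1, 2 or 3, and 0.34 with no scaling beyond the library total. At an unadjusted p under 0.05 none of the 33 passed in upf1-3 pad4-1, where 2780 of all 20895 genes did. In pad4-1 3 of the 33 passed, HIK (1.07), TOPII (0.87) and CDC20.1 (0.86), where 2666 of all 20895 genes did. The difference of this ratio between the genotypes was called for no mitotic gene and for none of the 20895 genes, and at an unadjusted p under 0.05 for none of the 33 and for 493 genes.

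Relative to total RNA, polysomal RNA of upf1-3 pad4-1 held more of both 3xHMG-box transcripts, a count of calls near the share over all genes. Of the 33 genes 2 were called higher in polysomal than in total RNA of upf1-3 pad4-1, where 5.23% of all 21905 genes were, and none in pad4-1, where 1.39% of all genes were. Scaled over all 18 libraries, 3xHMG-box1 had 14.1, 16.6 and 3.48 CPM in polysomal RNA of upf1-3 pad4-1 and 2.63, 0.287 and 0.779 CPM in its total RNA. 3xHMG-box2 had 32.6, 49.3 and 11.7 CPM in polysomal RNA of upf1-3 pad4-1 and 7.46, 3.804 and 10.2 CPM in its total RNA. Monosomal RNA of upf1-3 pad4-1 had 5.94, 10.2 and 6.16 CPM of 3xHMG-box1 and 19.5, 23.1 and 7.76 CPM of 3xHMG-box2. An excess over total RNA was thus not seen on polysomes alone. On monosomes it came with overlap for 3xHMG-box2, and the monosome-to-total ratio was not tested here. Each polysomal value exceeded each total RNA value for both genes, with log2 ratios of 3.23 (SE 0.69, adjusted p = 0.00705) for 3xHMG-box1 and 2.13 (SE 0.48, adjusted p = 0.00905) for 3xHMG-box2. In pad4-1 the same ratios were 2.46 (adjusted p = 0.0547) and 1.65 (adjusted p = 0.0671). The difference between genotypes was called for no gene of the 33 and for none of all genes, with 0 of the 33 and 1508 genes at an unadjusted p under 0.05. So the ratio was not shown to differ between genotypes for either 3xHMG-box gene.

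Median log2 ratios of polysomal to total RNA over the 33 genes were 0.44 in upf1-3 pad4-1 and 0.45 in pad4-1, beside -0.02 and 0.03 over all genes. The value in upf1-3 pad4-1 was 0.10, 0.22 and 0.83 without its polysome replicate 1, 2 or 3, and 0.73 without its total replicate 3. With no scaling beyond the library total the medians were 0.94 in upf1-3 pad4-1 and 0.12 in pad4-1, so their closeness depends on the scaling and on single libraries. Material may also differ between the kinds of RNA. In pad4-1 replicates 1, 2 and 3 floral and anther markers summed to 19.5, 5.85 and 4.78 CPM in total RNA. Their sums in polysomal RNA were 3.49, 34.1 and 50.1 CPM. Ribosome association and such differences cannot be told apart in these ratios. CDC20.1 had the lowest ratio in upf1-3 pad4-1, -1.03 (adjusted p = 0.184). In upf1-3 pad4-1 the call of 3xHMG-box2 was lost without total replicate 2 or polysome replicate 2 of that genotype (adjusted p up to 0.0583), leaving 1 gene. The count was 5 without total replicate 3, 4 without monosome replicate 3 and 6 without polysome replicate 3, all of upf1-3 pad4-1, and 9 without both fraction libraries of its replicate 3.

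**Figure D4:**
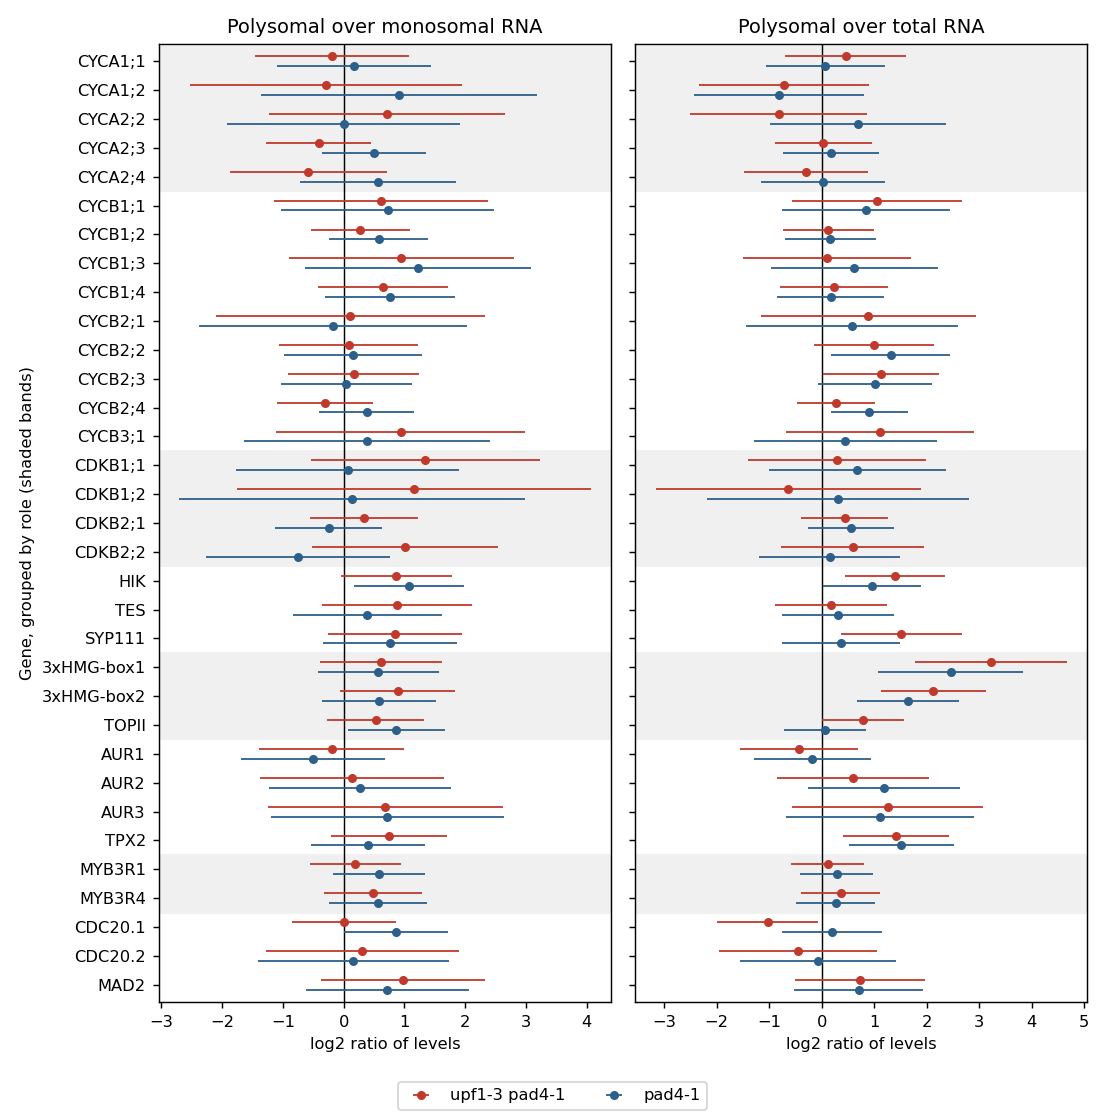
Log2 ratio of polysomal to monosomal level (left) and of polysomal to total level (right) for the 33 mitotic genes, upf1-3 pad4-1 in red above pad4-1 in blue, with 95% intervals. Most points lie right of 0 in both genotypes, and 3xHMG-box1 and 3xHMG-box2 stand far right in the polysome-to-total panel, at 3.23 and 2.13 in upf1-3 pad4-1 and 2.46 and 1.65 in pad4-1.

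Further genes of mitosis also fell. Of 16 further mitosis and spindle checkpoint genes 13 fell in total RNA, 7 in monosomal and 7 in polysomal RNA, and none rose (medians -1.79, -1.21 and -1.57). Of all genes tested 12.5, 4.6 and 5.04% fell in those 3 kinds of RNA. BUBR1, a spindle checkpoint gene, averaged 1.82 ± 1.48 CPM in total RNA of upf1-3 pad4-1 and 9.48 ± 2.27 CPM in pad4-1 (SD, n = 3 each) and fell by 2.38 on the log2 scale (adjusted p = 0.0212). The locus AT3G54630 averaged 0.782 ± 0.0792 CPM in upf1-3 pad4-1 and 4.02 ± 0.212 CPM in pad4-1, at -2.36 (adjusted p = 0.00279), and AT2G28620 averaged 5.89 ± 1.83 CPM in upf1-3 pad4-1 and 25.4 ± 5.07 CPM in pad4-1, at -2.11 (adjusted p = 0.00358). PPK1, a checkpoint kinase gene, fell by 1.82 (adjusted p = 0.00453). The other calls in total RNA were CYCA2;1, CENP-C, BUB3.1, the condensin subunits SMC2 and AT5G48600, FZR3, the kinesins ATK1 and ATK5, and the microtubule-associated EDE1, at -2.04 to -1.35. AT5G48600 is the SMC4 or CAP-C gene, which bears the symbol SMC3 in the reference. CKS2, HTR12 and AT1G61000 were not called. In monosomal RNA CYCA2;1, BUBR1, AT5G48600, AT2G28620, ATK1, ATK5 and EDE1 fell, at -3.47 to -1.16. In polysomal RNA CENP-C, BUB3.1, BUBR1, AT5G48600, FZR3, AT2G28620 and ATK1 did, each at -1.07 or below.

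Of 13 further phragmoplast and cytokinesis genes 10 fell in total RNA, 4 in monosomal and 6 in polysomal RNA, and none rose (medians -1.59, -1.25 and -1.22). The shares of all genes tested that fell were 12.5, 4.6 and 5.04%. KINESIN-12B, which works at the phragmoplast midline, averaged 6.34 ± 3.15 CPM in upf1-3 pad4-1 and 35.3 ± 3.15 CPM in pad4-1 (SD, n = 3 each), at -2.48 (adjusted p = 0.00535). PLE, the microtubule bundler MAP65-3, averaged 5.24 ± 2.07 CPM in upf1-3 pad4-1 and 21.8 ± 1.20 CPM in pad4-1, at -2.06 (adjusted p = 0.00496), and PAKRP1 stood at -1.91 (adjusted p = 0.00637). The cascade downstream of HIK was split: the kinase genes NP2, NP3 and MKK6 fell (-1.14, -1.93 and -1.47), while NP1 at 0.47 and MPK4 at 0.02 were not called. POK1, POK2, FU and AT5G18700 also fell in total RNA, at -2.07 to -1.54, and KEU, the partner of SYP111 in vesicle fusion, had 0.56 (adjusted p = 0.183). In monosomal RNA PLE, POK1, POK2 and AT5G18700 fell, at -2.19 to -0.97, and in polysomal RNA these 4 with KINESIN-12B and NP3 did, at -2.41 to -1.07.

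Of 15 regulators of G1 and S phase 3 fell in total RNA, beside 12.5% of all genes tested, and none fell in monosomal or polysomal RNA, beside 4.6 and 5.04% (medians -0.29, 0.03 and -0.36). These counts are near the shares over all genes, and the difference from the mitotic lists was not tested. The called genes were the E2F factors E2F3 (-1.18, adjusted p = 0.0147) and ATE2F2 (-1.06, adjusted p = 0.0274) and the cyclin CYCA3;4 (-0.88, adjusted p = 0.0424), while the D-type cyclins and RBR1, the retinoblastoma protein, were not called. Of 16 inhibitors and endocycle genes 5 fell in total RNA and 1 rose, with none called in the fractions (medians -0.73, -0.33 and -0.24). Over all genes tested 12.5% fell and 15.3% rose in total RNA, 4.6 and 8.07% in monosomal RNA, and 5.04 and 8.34% in polysomal RNA. WEE1, SIM, ICK6, KRP2 and DEL1 fell, at -1.32, -1.41, -1.61, -1.76 and -1.23, and AT1G07500 rose by 3.15 (adjusted p = 0.0362) at a very low level, 0.338 ± 0.166 CPM in upf1-3 pad4-1 and 0.0368 ± 0.0368 CPM in pad4-1 (SD, n = 3 each). Of 4 tested repressor-type MYB3R and DREAM complex genes none was called in any kind of RNA (medians -0.15, 0.01 and -0.47), the smallest p in total RNA being those of TSO1 (-0.80, adjusted p = 0.0595), AT4G29000 (-0.37) and MYB3R-5 (0.16). All of these lists, like the 33 genes, were put together with earlier results of these data known.

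Among 10 regulators of young leaf growth ANT, a factor that prolongs cell proliferation in leaves, was the 1 gene called in total RNA, which is no larger a share than the 12.5% of all genes that fell. It averaged 7.09 ± 2.00 CPM in upf1-3 pad4-1 and 30.6 ± 3.09 CPM in pad4-1 (SD, n = 3 each), at -2.11 (adjusted p = 0.00236). In the fractions ANT, GRF2 and GRF5 fell on monosomes (-1.69, -1.48 and -3.03), where 4.6% of all genes fell. In polysomal RNA GRF1 did (-1.67), where 5.04% of all genes fell. The list's medians were -1.06, -1.08 and -0.99 in total, monosomal and polysomal RNA. AN3 (-1.98) and GRF1 (-1.13), next in p after ANT in total RNA, both had an adjusted p of 0.0635.

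**Figure D5:**
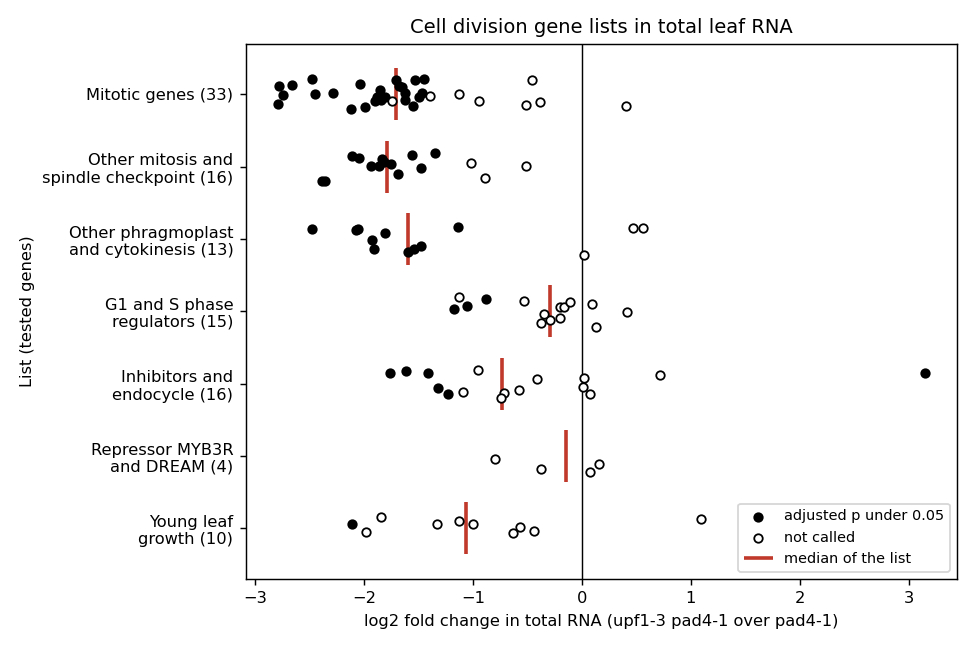
Log2 fold change of upf1-3 pad4-1 over pad4-1 in total RNA for the 33 mitotic genes and 6 further lists, with the number of tested genes in brackets. Each point is a gene, filled where called, and the red bar is the list's median. The 3 lists of mitosis and cytokinesis have medians at -1.71, -1.79 and -1.59, and the lists of earlier phases, inhibitors and repressors lie between -0.73 and -0.15. The list of young leaf growth has its median in between, at -1.06.

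Some members share sequence or ground with other genes. Beside the CDC20 pair, 19.4% of the 31-base words of CYCB1;2 and 19.6% of those of CYCB2;3 also occur in another gene, in the largest part AT1G34460 and AT1G20590. For CDKB1;1 and CDKB1;2 the share is 2.59 and 2.21%, and for each other member at most 0.243%. On the opposite strand genes overlap SYP111, TPX2, MAD2, both 3xHMG-box genes, the 3 Aurora kinases, CYCA2;3, MYB3R1 and the 4 B-type kinases. The libraries keep strand, but whether the counting used it is not given in the sources used here, so reads of such neighbours may be mixed.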

How the data were processed

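The authors deposited estimated counts per locus, expected counts that need not be whole, in one table of the total RNA libraries and one of the monosomal and polysomal libraries. The submitters' processing notes name kallisto 0.43.0, limma and TAIR10, with no role or order. How transcripts were summed to loci and whether strand was used are not given in the sources used here. Both tables hold unnormalized values, so a joint fit over both could be run. Such a fit cannot tell the kind of RNA apart from differences in material or preparation between the tables.

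Estimated counts were rounded to whole numbers and tested with edgeR 4.0.16 (quasi-likelihood, TMM scaling, filterByExpr with a count minimum of 10) in R 4.3.3, with Benjamini-Hochberg adjusted p under 0.05, two-sided, as a call. Total RNA was fitted over its 6 libraries (20302 genes), the fractions over 12 (20895) and polysomal against total RNA over 18 (21905). The tests were checked on simulated counts. Levels in the text come from the fit each comparison uses, and the scaling differs between fits. Loci were matched to RefSeq TAIR10.1 for symbols, transcripts and promoter windows (33437 of 34212, 97.7%).

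The members and lists were chosen with earlier results of these data known. Members called in at least 1 genotype comparison, with a mean log2 CPM of at least 1 in that fit, are given in every library and the others by ranges. From each other list the loci with the 3 smallest p in total RNA and any called locus are named. No label says that a replicate number is shared by genotypes. Deviations of same-numbered monosomal and polysomal libraries correlated weakly in upf1-3 pad4-1 (r = 0.232, 0.155 and 0.169), and not for each number in pad4-1 (0.339, 0.06 and 0.104) or between genotypes. These low correlations do not show by themselves that the fractions were paired, and the main polysome-to-monosome fit left them unpaired. Alternatives were other scalings, filters, tools (DESeq2 1.42.0, limma-voom 3.58.1), the replicate block, other sets of libraries and leaving out each library. Leaving out both fraction libraries of a replicate, and a block within each genotype, were added after seeing the data.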

Additional observations from a re-analysis of the deposited data

How the results depend on the processing

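No mitotic gene was called higher in upf1-3 pad4-1 under any alternative run. The count called lower in total RNA (25) was 16 with all 18 libraries in the fit and 10 to 26 with a library left out. The count in monosomal RNA (14) was 1 with no scaling beyond the library total, 6 without both fraction libraries of pad4-1 replicate 1, and 7 to 20 with a library left out, and the count in polysomal RNA (13) was 2 with no scaling, 21 with no low count filter, 20 with DESeq2, and 8 to 17 with a library left out. Without scaling the median of all genes moved to -0.135, 0.62 and 0.471 in total, monosomal and polysomal RNA. Polysomal over total RNA in upf1-3 pad4-1 (2 higher) gave 5 with no filter, 5 with DESeq2, 4 with limma-voom, 9 without both fraction libraries of its replicate 3, and 1 to 6 with a library left out. In pad4-1 (0 higher) it gave 1 with RLE scaling, 3 with no filter, 3 with DESeq2, 3 with limma-voom and 0 to 2 with a library left out. With the replicate number as a block the counts lower were 26, 15 and 18 in total, monosomal and polysomal RNA, that for polysomal over total RNA in pad4-1 was 1, and a block within genotype gave 1 for polysomal over monosomal RNA in pad4-1, and it changed no other count of mitotic genes by over 1.5 times. Directions turned for log2 fold changes that were not called: CYCA1;2 in total RNA (-0.6863 to 0.0206 with a library left out, the last without pad4-1 replicate 3), MYB3R1 in monosomal RNA with no scaling (0.4635), with a library left out (-0.4878 to 0.1928, the last without pad4-1 monosome replicate 1) and without both fraction libraries of pad4-1 replicate 1 (0.1996), and with no scaling CYCA1;2 (0.1578) and TES (0.0262) in polysomal RNA. The cause was not tested. Depth limits the genes with few counts, such as CDKB1;2, CYCB3;1 and AUR3 in the fractions.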
